A study of Homo sapiens with 6 samples.

Results

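The genes described here were 38 regulators of pre-mRNA splicing, chosen by symbol from 37887 rows of a gene count table. They comprised 12 SR proteins, 2 TRA2 proteins, 14 hnRNPs, 3 PTB proteins, the 2 epithelial splicing regulators ESRP1 and ESRP2, and 5 other tissue regulators (RBFOX2, QKI, MBNL1, MBNL2 and CELF1). The choice was by family and not by a cutoff on a measured value, though earlier results of these data were known when it was made. RNA came from MDA-MB-436, a human cell line of triple-negative breast cancer with mutant BRCA1, into which a MUC1 shRNA vector under tetracycline control had been stably introduced. The 3 control cultures received 0.1% DMSO, the vehicle, and the 3 shMUC1 cultures received doxycycline at 500 ng/ml. The sample titles name a control shRNA for the vehicle group, but the design text and the treatment field describe the same MUC1 shRNA cells without doxycycline, and these were followed. No doxycycline-treated library with another shRNA was analysed here, so MUC1 silencing and doxycycline cannot be told apart, and all values come from 1 line and 1 shRNA vector. The length of treatment is not given in the sources used here.

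Splicing regulators decide which exons of a pre-mRNA are joined. SR proteins carry a domain rich in arginine and serine and mostly bind exonic enhancers, where they recruit the spliceosome; TRA2 proteins act in the same manner on purine-rich enhancers. The hnRNPs and PTB proteins often bind silencers in exons or in flanking introns. ESRP1 and ESRP2 set the epithelial pattern of exon use, while QKI and RBFOX2 are known for exons used by mesenchymal cells. Many of these genes hold their own level in check through poison exons that send the transcript to nonsense-mediated decay.

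MUC1 itself was measured first. It held 93, 84 and 102 counts in the control libraries and 72, 51 and 34 in the shMUC1 libraries. Its level was 3.88 ± 0.40 CPM (counts scaled to a common library size; SD, n = 3) in control cells and 2.14 ± 0.41 in shMUC1 cells, a log2 fold change of -0.84 (SE 0.21, adjusted p = 0.00119 by edgeR's quasi-likelihood test). Total counts ran from 18678307 to 27825546 per library, and 3 counts, taken as the floor, equalled 0.161 CPM in the shallowest library. The triplicates were cultures of 1 line, so the p-values describe the spread between these cultures.

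MUC1-C silencing was accompanied by lower transcript levels of most of the splicing regulators, by modest amounts. Of the 37 genes with enough counts to be tested, 24 fell, 7 rose and 6 did not pass the threshold of adjusted p under 0.05. Over all 15355 genes tested, 23.6% fell and 25.2% rose, so a called gene was common in this experiment, and the 64.9% of splicing regulators that fell is to be read against the former share. These genes are abundant, and abundant genes pass the threshold more readily. Among the 5162 tested genes that averaged 1000 counts or more, 29.4% fell and 39.4% rose, whereas of the 35 splicing regulators at that depth 68.6% fell and 20% rose. The median log2 fold change of the 37 genes was -0.21, beside a median of 6e-04 over all tested genes. ESRP1, the remaining gene, was at or near the floor and was not tested.

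The changes were small in size. None of the 37 genes passed a 2-fold change in edgeR, also at an unadjusted p under 0.05, or in DESeq2, where 5.95% of all tested genes and 1.36% of those that averaged 1000 counts or more passed it in edgeR in either direction, so a count of 0 is near the share at that depth. The median absolute log2 fold change was 0.24 for the splicing regulators, 0.24 for all tested genes and 0.18 for tested genes that averaged 1000 counts or more, the depth of 35 of the 37. Control and shMUC1 libraries did not overlap for 25 genes that were lower and 8 that were higher, compared with 26.8% and 28.1% of all tested genes. In bulk RNA, fewer cells that express a gene and less of its RNA in each cell cannot be told apart.

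**Figure D1:**
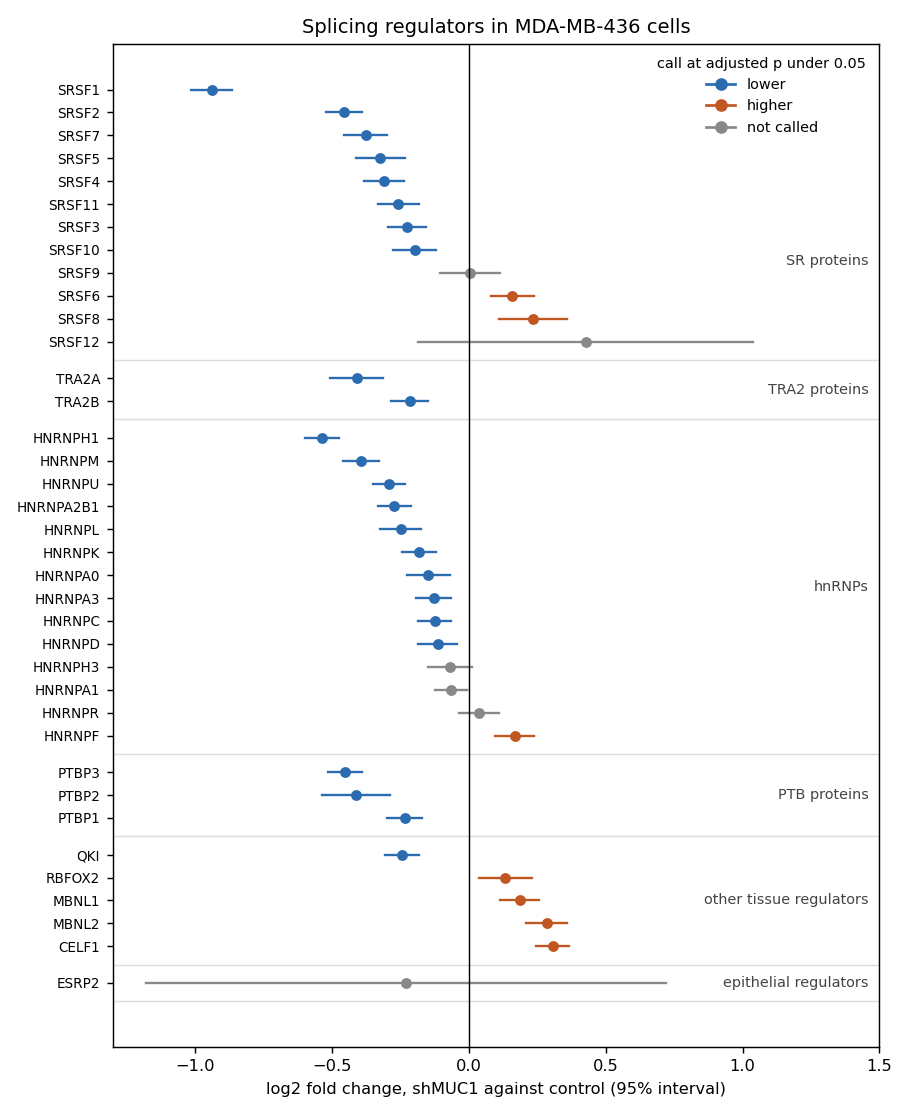
Log2 fold change of the 37 tested splicing regulators, shMUC1 against control, on the horizontal axis, with genes grouped by family. The 95% intervals were computed from edgeR's test statistics (n = 3 libraries per group). Most points lie left of 0, SRSF1 lies farthest left at -0.94, and 4 of the 5 other tissue regulators lie to the right.

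SRSF1 had the largest fall of the 38 genes. It is the founding SR protein and is known as an oncogene in breast epithelium. SRSF1 lies at chr17:58003360-58007346 on the minus strand (GRCh38, GENCODE 29). Its level was 243.1, 245.1 and 238.0 CPM in the control libraries and 124.1, 128.8 and 125.8 CPM in the shMUC1 libraries. The groups were far apart beside a spread of a few CPM within each. The log2 fold change was -0.94 (SE 0.036, adjusted p = 2.51e-22), and 4.64% of all tested genes fell as far. In GENCODE 29, the transcript model AC015813.2 on the same strand shares 56.6% of the exon bases of SRSF1, and this model has no row in the count table, so reads that the authors' counting gave to SRSF1 may include it.

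The other SR proteins mostly fell as well, and by less. SRSF2, which is known for its exonic enhancer binding and for mutations in myeloid neoplasms, was at 295.6, 307.1 and 302.4 CPM in control cells and at 220.4, 217.8 and 222.2 CPM in shMUC1 cells. Its log2 fold change was -0.46 (SE 0.033, adjusted p = 2.63e-14). SRSF2 shares 36.7% of its exon bases with MFSD11 on the opposite strand, whose own log2 fold change was -0.11 (adjusted p = 0.413). SRSF7 is an SR protein with a zinc knuckle that also takes part in mRNA export. It was at 149.4, 156.2 and 154.1 CPM in control cells and at 114.7, 118.0 and 122.0 CPM in shMUC1 cells. That was a log2 fold change of -0.38 (SE 0.039, adjusted p = 2.97e-10). SRSF5 was at 113.9, 125.4 and 125.6 CPM in control libraries and at 100.3, 97.31 and 94.07 CPM in shMUC1 libraries, with a log2 fold change of -0.32 (SE 0.044, adjusted p = 1.00e-07). For all 3 of these genes every shMUC1 library was below every control library.

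A further 4 SR genes fell within a narrow band. SRSF4, SRSF11, SRSF3 and SRSF10 had log2 fold changes of -0.31, -0.26, -0.23 and -0.20. SRSF10 is known as a repressor that acts when it is dephosphorylated, for instance after heat shock, and SRSF3 is the smallest SR protein. By contrast, SRSF6 rose by a log2 fold change of 0.16 (adjusted p = 0.000823). It was at 157.3, 170.8 and 154.4 CPM in control cells and at 180.3, 179.0 and 179.1 CPM in shMUC1 cells. SRSF8, an intronless relative of SRSF2, rose by 0.24 (adjusted p = 0.00161), from 51.50, 50.21 and 42.98 CPM to 53.71, 58.09 and 58.48 CPM. Control replicate 3 was the lowest of the 6 libraries, and without it the log2 fold change was 0.14 and the adjusted p was 0.0508. SRSF9 did not differ beyond its spread (log2 fold change 0.01, 95% interval -0.106 to 0.116). It shares 46.2% of its exon bases with GATC on the opposite strand, whose own log2 fold change was -0.09 (SE 0.073). SRSF12 was low, with 30, 32 and 29 counts in control and 50, 48 and 26 in shMUC1 libraries, and its log2 fold change of 0.43 did not pass the threshold (adjusted p = 0.252).

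Of the 12 SR genes 8 were thus lower, 2 higher and 2 not called, and their sum was lower. Their summed level was 1955, 2046 and 1971 CPM in control libraries and 1622, 1628 and 1612 CPM in shMUC1 libraries, and the groups did not overlap. Within that sum, SRSF1 made up 12.2% ± 0.24 of the summed SR counts in control cells (SD, n = 3). In shMUC1 cells it made up 7.79% ± 0.13. SRSF6 went the other way, from 8.08% ± 0.26 to 11.1% ± 0.07, and SRSF3 remained the most counted SR gene, at 17.4% ± 0.17 and 18.2% ± 0.70. The log2 ratio of SRSF4, another SR gene, to SRSF1 was -0.42 ± 0.022 in control and 0.21 ± 0.0046 in shMUC1 libraries (exact permutation p = 0.1, the smallest possible, adjusted p = 0.125 over 5 pairs). That difference restates the larger fall of SRSF1 (log2 fold change -0.94) beside that of SRSF4 (-0.31). The shares and ratios given here are of reads and not of molecules, since longer transcripts give more reads.

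**Figure D2:**
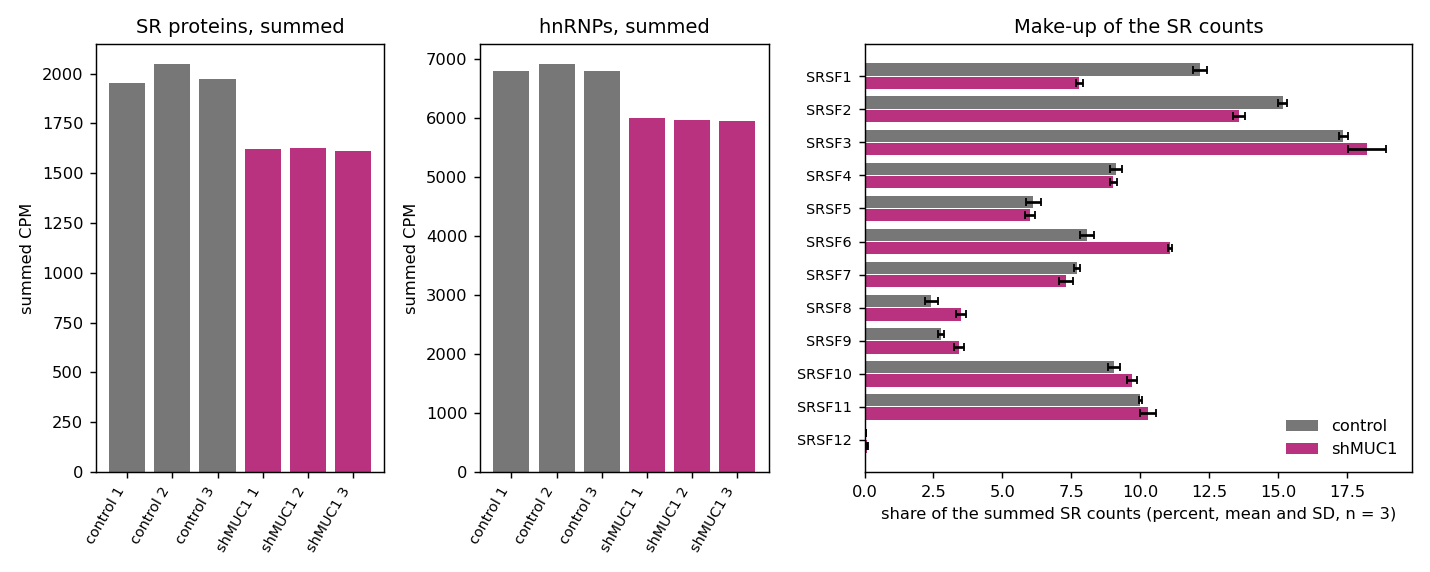
Summed level (CPM) of the 12 SR genes and of the 14 hnRNP genes in each library, and share of the summed SR counts (percent, mean with SD as error bar, n = 3) taken by each SR gene. Both sums are lower in all 3 shMUC1 libraries, and the share of SRSF1 shrinks from 12.2% to 7.79%.

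Both TRA2 genes fell. TRA2A was at 97.25, 104.9 and 92.73 CPM in control cells and at 75.31, 73.00 and 73.64 CPM in shMUC1 cells, a log2 fold change of -0.41 (SE 0.047, adjusted p = 3.35e-09). TRA2B, the paralog with the better known role in exon inclusion of SMN2, fell by 0.21 (adjusted p = 1.38e-06). The log2 ratio of TRA2A to TRA2B within a library was -1.41 ± 0.098 in control and -1.61 ± 0.053 in shMUC1 cells. The 2 groups of ratios did not overlap, and with 3 libraries against 3 an exact permutation test cannot go below p = 0.1, which was its value here, two-sided (adjusted over 5 pairs, p = 0.125).

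Among the 14 hnRNP genes 10 fell, 1 rose and 3 were not called, with a median log2 fold change of -0.14. HNRNPH1, which binds runs of guanines, fell the most. It was at 673.6, 695.9 and 653.0 CPM in control libraries and at 468.5, 472.2 and 455.0 CPM in shMUC1 libraries. The log2 fold change was -0.53 (SE 0.031, adjusted p = 3.40e-17). HNRNPF, its close paralog that binds the same kind of sequence, rose by 0.17 (adjusted p = 0.000173), from 207.6, 224.8 and 223.6 CPM to 241.6, 251.0 and 244.4 CPM. HNRNPH3, the smaller relative of both, had a log2 fold change of -0.07 and overlapping groups (adjusted p = 0.154).

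HNRNPM, a factor that binds GU-rich motifs and is known in breast cancer for promoting mesenchymal splicing of CD44, was at 349.2, 360.8 and 357.2 CPM in control cells. In shMUC1 cells it was at 267.1, 277.2 and 268.1 CPM, a log2 fold change of -0.39 (SE 0.032, adjusted p = 7.03e-13). HNRNPU, a scaffold protein of the nuclear matrix, HNRNPA2B1, and HNRNPL, which binds CA repeats, fell by 0.29, 0.27 and 0.25 on the log2 scale. HNRNPK, which binds cytosine-rich runs, fell by 0.18, and HNRNPA0, HNRNPA3, HNRNPC and HNRNPD by 0.15, 0.13, 0.12 and 0.11. The fall of HNRNPD, a protein also called AUF1 that directs decay of AU-rich mRNAs, was the smallest one to pass the threshold (adjusted p = 0.00685). It failed when control replicate 1, shMUC1 replicate 2 or shMUC1 replicate 3 was left out, with adjusted p values of 0.066, 0.0616 and 0.0565.

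HNRNPA1, the hnRNP best known for silencing exons against SRSF1, was at 747.3, 741.9 and 720.9 CPM in control libraries. In shMUC1 libraries it was at 719.9, 704.1 and 689.5 CPM. Each shMUC1 library was below each control library, by as little as 1 CPM, and the log2 fold change of -0.06 (SE 0.029, adjusted p = 0.0649) missed the threshold. It passed without control replicate 3 (log2 fold change -0.09, adjusted p = 0.00776) and in DESeq2 (adjusted p = 0.0378). HNRNPA1 is also the least certain of the counts: 75 rows of the table carry names of its pseudogenes, and these held counts equal to 19.2% of its own. Those rows together were at 143.9 ± 1.54 CPM in control and 133.6 ± 8.61 CPM in shMUC1 cells. For HNRNPA3 the rows named as copies held 9.97% of its own counts, and for HNRNPC and HNRNPL 3.25% and 2.29%. HNRNPR was not called (log2 fold change 0.04, 95% interval -0.035 to 0.111).

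The 14 hnRNP genes summed to 6792, 6904 and 6786 CPM in control libraries and to 5991, 5956 and 5941 CPM in shMUC1 libraries. The groups did not overlap here either. HNRNPH1 took 9.87% ± 0.23 of the summed hnRNP counts in control cells and 7.80% ± 0.14 in shMUC1 cells. The share of HNRNPA1 was 10.8% ± 0.19 in control cells and 11.8% ± 0.21 in shMUC1 cells.

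All 3 PTB genes fell. These proteins bind pyrimidine tracts, and PTBP1 is known to keep PTBP2, the neuronal paralog, low through a skipped exon. PTBP3 was at 620.1, 629.2 and 614.7 CPM in control cells and at 470.8, 445.8 and 445.7 CPM in shMUC1 cells, a log2 fold change of -0.45 (SE 0.031, adjusted p = 3.49e-15). PTBP2 was at 47.03, 50.34 and 46.96 CPM in control libraries and at 37.86, 34.44 and 36.23 CPM in shMUC1 libraries, a log2 fold change of -0.41 (SE 0.062, adjusted p = 6.80e-07). PTBP1 was at 508.0, 501.6 and 533.3 CPM in control cells and at 440.2, 434.3 and 437.5 CPM in shMUC1 cells. Its log2 fold change was -0.23 (SE 0.031, adjusted p = 5.47e-08). In each case the groups were apart. The log2 ratio of PTBP2 to PTBP1 was -3.42 ± 0.095 in control and -3.60 ± 0.058 in shMUC1 cells, and it was lower in every shMUC1 library than in any control library (exact permutation p = 0.1, adjusted p = 0.125).

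**Figure D3:**
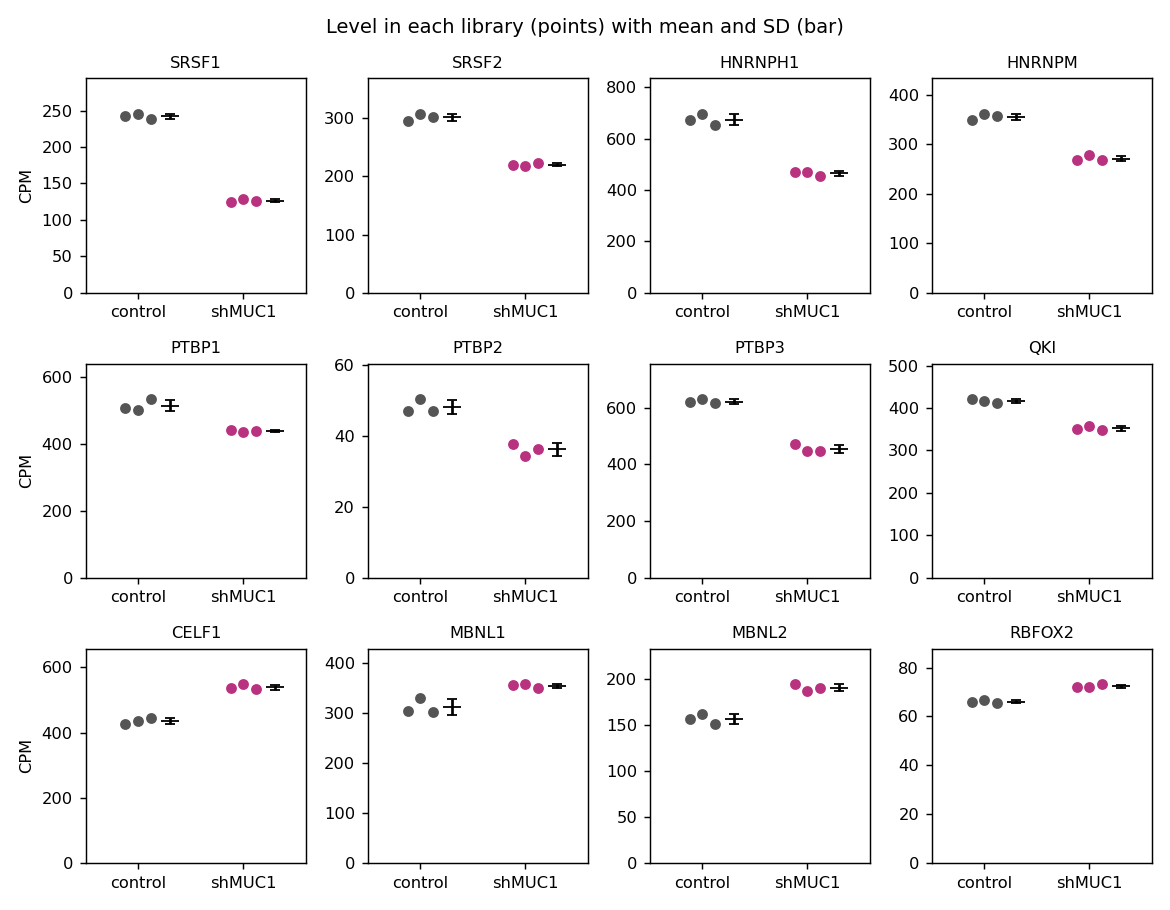
Level (CPM) of 12 splicing regulators in each control and shMUC1 library (points), with the mean and SD of each group of 3 beside them. SRSF1, SRSF2, HNRNPH1, HNRNPM, the PTB genes and QKI are lower in every shMUC1 library, and CELF1, MBNL1, MBNL2 and RBFOX2 are higher in every one.

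The other tissue regulators went mostly the opposite way, with 4 higher and 1 lower. CELF1, a GU-rich element binding protein that opposes MBNL proteins in heart and muscle, was at 427.0, 435.9 and 444.8 CPM in control cells. It reached 535.8, 548.0 and 534.1 CPM in shMUC1 cells, a log2 fold change of 0.31 (SE 0.030, adjusted p = 7.03e-11). MBNL2 rose by 0.28 and MBNL1 by 0.19 on the log2 scale, from 155.6, 162.0 and 150.8 CPM to 193.6, 186.7 and 190.2 CPM for MBNL2. The log2 ratio of MBNL2 to MBNL1 was -0.9985 ± 0.033 in control and -0.90 ± 0.031 in shMUC1 cells (exact permutation p = 0.1, adjusted p = 0.125). MBNL proteins and CELF1 are known as antagonists in myotonic dystrophy, and here MBNL1, MBNL2 and CELF1 were each higher in every shMUC1 library.

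QKI and RBFOX2, both known for mesenchymal exons, moved in opposite directions. QKI was at 420.5, 416.6 and 412.8 CPM in control libraries and at 351.0, 358.0 and 347.0 CPM in shMUC1 libraries. Its log2 fold change was -0.24 (SE 0.031, adjusted p = 2.44e-08). RBFOX2 was at 65.86, 66.59 and 65.32 CPM in control cells and at 71.95, 71.84 and 73.10 CPM in shMUC1 cells. The groups were apart, but its log2 fold change of 0.13 (SE 0.048, adjusted p = 0.0207) was near the threshold and missed it without control replicate 3 (adjusted p = 0.0778) or with scaling to library totals alone (adjusted p = 0.0533).

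The epithelial splicing regulators were almost silent in both groups. ESRP1 held 0 counts in all 3 control libraries and 0, 4 and 3 counts in the shMUC1 libraries, which is at the floor, and no fold change is given. ESRP2 held 8, 12 and 32 counts in control and 17, 11 and 15 in shMUC1 libraries. Its groups overlapped, with a log2 fold change of -0.23 (SE 0.47, adjusted p = 0.719) and a 95% interval of -1.18 to 0.719. That interval holds falls as well as rises, so the direction of any difference was not settled at this depth. Without control replicate 3, the highest of the 6, the log2 fold change was 0.48. The log2 ratio of ESRP1 to ESRP2 (0.5 counts added to each) differed by 2.04 between groups with a permutation p of 0.3 in the exact test, and it rests on these few counts: over 7 alternatives, which add 1 count or leave out a library, it ranged from 1.28 (without shMUC1 replicate 2) to 3.17 (without shMUC1 replicate 1).

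Markers of epithelial cells moved with the groups while the ESRP genes stayed near the floor. Of 17 epithelial markers 10 were tested, of which 7 were higher and 2 lower, and their summed level, which is mostly that of KRT8 and KRT18, was 662 to 698.7 CPM in control libraries and 1404 to 1470 CPM in shMUC1 libraries. EPCAM rose by 2.12 on the log2 scale and CLDN3 and CLDN4 fell by 1.31 and 0.70, whereas GRHL2, OVOL1 and ST14 had 0 counts in all libraries. Of 9 mesenchymal markers 3 were higher and 5 lower. ZEB2, ZEB1 and VIM had log2 fold changes of -1.83, -0.97 and -0.78, and SNAI2, FN1 and SNAI1 of 1.14, 0.42 and 0.37. The sum over the 9, which adds a falling VIM to a rising FN1, was 2039 to 2074 CPM in control and 1915 to 1970 CPM in shMUC1 libraries. Among the receptor genes that define the breast cancer class, ESR1 and PGR were near 0 and ERBB2 had a log2 fold change of -0.20. The part of these shifts in the levels of the splicing regulators was not tested.

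Levels per length place the changes among the regulators themselves. Divided by the length of all exons of the gene in GENCODE 29, HNRNPK had the highest control level at 169.8 CPM per kb, before HNRNPA1 at 144.6 and HNRNPC at 114.9 CPM per kb, with SRSF2 as the next. SRSF1 was the eighth at 72.5 CPM per kb and the 17th of 38 in shMUC1 cells, at 37.8 CPM per kb. HNRNPF went from rank 11 at 67.2 CPM per kb to rank 4 at 75.5, and CELF1 from rank 15 at 41.7 to rank 10 at 51.6 CPM per kb. In control cells the neighbours PTBP3, PTBP1 and SRSF1, at 75.4 ± 0.89, 74.7 ± 2.43 and 72.5 ± 1.09 CPM per kb, and SRSF1 and HNRNPA3 (71.3 ± 1.76) lay within or near each other's spread. At the bottom were RBFOX2 at 6.58, PTBP2 at 3.72, SRSF12 at 0.279 and ESRP2 at 0.126 CPM per kb, and ESRP1, the last in both groups, had 0 counts in control cells. These levels depend on the exon union, which is longer than most single transcripts.

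To place the 38 genes within the splicing machinery, 6 further lists were counted. Each count is to be read against the 23.6% of all tested genes that fell and the 25.2% that rose. Among tested genes that averaged 1000 counts or more, these shares were 29.4% and 39.4%. Among 10 genes for SR protein kinases and nuclear import, 5 fell and 1 rose. CLK2, a kinase that phosphorylates SR proteins in the nucleus, fell by 0.59 on the log2 scale, and SRPK2, a mostly cytoplasmic SR kinase, rose by 0.19. SRPK3, the muscle kinase of that family, was low at 0.686 ± 0.32 CPM in shMUC1 cells and had a log2 fold change of -1.13 (adjusted p = 0.027) with overlapping groups. Of 13 other hnRNPs and relatives 8 fell and 2 rose, with HNRNPLL at -0.42 and HNRNPUL1 at -0.41 among the former and HNRNPUL2 at 0.42 and RALY at 0.10 among the latter.

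Among 33 other sequence-specific regulators 1 gene rose and 2 fell past 2-fold, where 5.95% of all tested genes passed it in either direction. Of these 33 regulators 26 were tested, 14 fell and 4 rose, with a median log2 fold change of -0.16. RBM24 and RBM20, known for exon use in muscle and heart, fell by 1.418 and 1.14 on the log2 scale, and both were low, with 1.203 and 1.22 CPM in shMUC1 cells. CELF2, the paralog of CELF1, rose by 1.58 (SE 0.16, adjusted p = 1.62e-10) to 8.98 ± 0.93 CPM, and TIA1, which binds uridine-rich sites next to weak splice sites, rose by 0.26.

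In the core spliceosome 10 of 40 genes fell and 13 rose, near the background shares of all genes, and the median log2 fold change was 0.01. SNRNP200, the helicase that unwinds U4 from U6, fell by 0.45, and SF3B1, a U2 protein that recognises the branch site, by 0.31. SNRPF and SNRPD3, which are Sm ring proteins, rose by 0.57 and 0.41. Of 9 splicing coactivators 3 fell and 1 rose, with SON at -0.39, LUC7L at -0.23 and SRRM2 at 0.16. Of 10 genes of nonsense-mediated decay 4 fell and 0 rose in edgeR, and SMG8 and SMG1, which belong to the kinase complex that phosphorylates UPF1, were at -0.53 and -0.48. One gene of the latter list passed as higher without control replicate 1 or without shMUC1 replicate 2.

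**Figure D4:**
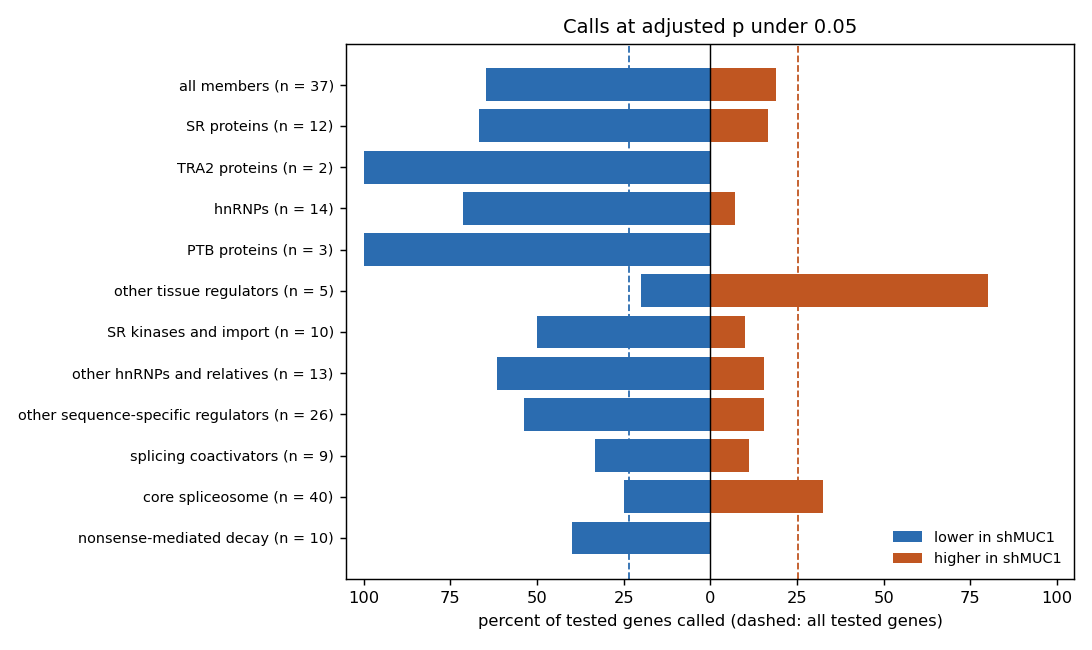
Percent of tested genes called lower (left) or higher (right) in shMUC1 cells at adjusted p under 0.05, for the splicing regulators, their families and 6 lists of the splicing machinery, with dashed lines at the 23.6% and 25.2% of all tested genes. The SR, TRA2, hnRNP and PTB bars extend left past the dashed line, so the fall was not particular to these families. Bars of the further lists do so too, among them other hnRNPs and relatives (8 of 13 lower) and other sequence-specific regulators (14 of 26 lower). The same holds for SR kinases and import, splicing coactivators and nonsense-mediated decay. The exception is the core spliceosome, whose 40 genes lie near both lines. The bar of the 5 other tissue regulators (4 higher, 1 lower) extends past the right dashed line.

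A sequence carried by 3 of the 24 regulators that fell, and by HNRNPR, which was not called, was examined in 3' untranslated regions (UTRs). The word ATCAGTA was taken from an earlier scan of these same data, in which genes that carried it tended to be lower, and so it is no independent evidence here. It is shown for the regulators that carry it because SRSF1, with the largest fall, and both PTBP2 and PTBP3 are among them. Each line gives 29 bases from the GENCODE 29 transcripts, 5' to 3', with the word in capitals.
SRSF1, chr17:58003589-58003617, minus strand: taaaatagtaaATCAGTAagtcacttcta
PTBP3, chr9:112219712-112219740, minus strand: actaaagtagtATCAGTAttctggttttc
PTBP2, chr1:96819006-96819034, plus strand: ttataatagaaATCAGTAtgattagtgtt
HNRNPR, chr1:23306363-23306391, minus strand: tttttttttttATCAGTAgtggggcatta

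The word occurred in the UTRs of 4 of the 37 tested regulators, or 10.8%, and in 13.6% of tested genes with a mean of at least 2 CPM and an annotated UTR. Of the 4, SRSF1, PTBP3 and PTBP2 fell, with log2 fold changes of -0.94, -0.45 and -0.41, and HNRNPR was not called at 0.04. Over all such genes, 45.0% of the 1534 with the word fell and 23.5% of the 9733 without it. The word came from a scan of these same data in which its carriers tended to be lower, so this difference is no independent evidence. The length of the UTR was not taken into account. The 37 regulators were not held to the minimum of 2 CPM, and SRSF12 and ESRP2, neither of them called, lie below it. The 33 regulators without the word had a median log2 fold change of -0.20, with 21 lower (63.6%) and 7 higher (21.2%). Of the 9733 tested genes without the word, 23.5% were lower and 32.6% higher. A match describes the letters of the transcript, and any part of the word in these levels was not tested.

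**Figure D5:**
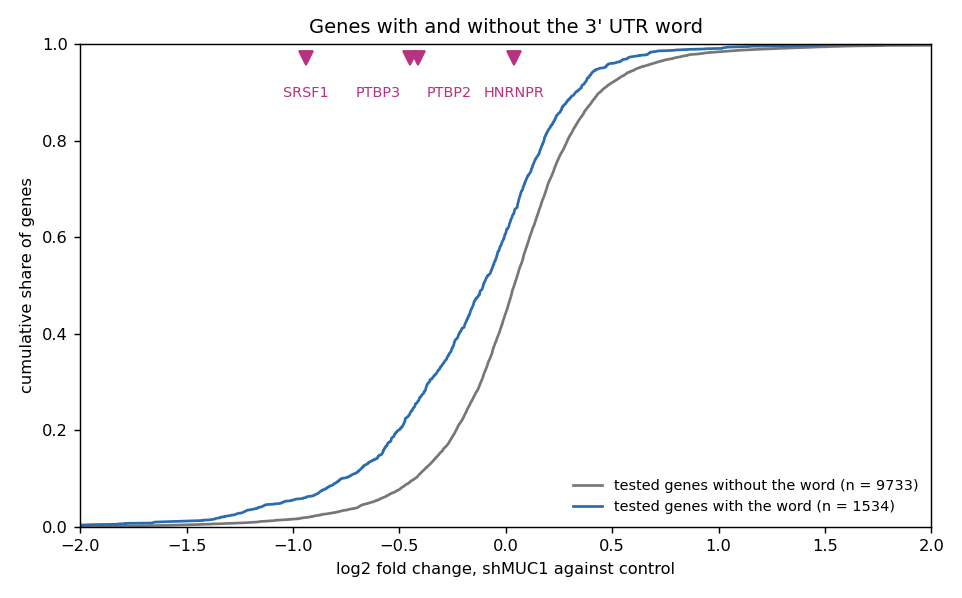
Cumulative share of tested genes (vertical axis) by log2 fold change, shMUC1 against control (horizontal axis), for 1534 genes with the word in a 3' UTR and 9733 without it. The word was taken from a scan of these same data, so the distance between the curves is no independent evidence. Triangles mark the log2 fold changes of the 4 regulators with the word, of which 3 lie at -0.41 or below and HNRNPR lies at 0.04.

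Promoters were searched for 4 short motifs on both strands, in RefSeq windows (GRCh38.p14) from 250 bases before to 50 bases after each start. Windows were held for 31 of the 38 genes. The E-box CACGTG is bound by MYC and related factors. It was in the windows of 5 of 31 genes (16.1%), compared with 12.3% of tested genes. Counted per single window, the E-box was in 7.26% of all 35116 windows, which is not comparable with the shares per gene. It is shown because MYC is a known activator of several hnRNP and SR genes, and each line gives 30 bases with the E-box in capitals.
HNRNPM, chr19:8444921-8444950, plus strand: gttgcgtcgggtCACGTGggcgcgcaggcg
HNRNPA3, chr2:177212711-177212740, plus strand: cggaaaacgcgtCACGTGacgactggcccc
HNRNPD, chr4:82374001-82374030, minus strand: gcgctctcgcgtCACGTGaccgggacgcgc
HNRNPH3, chr10:68331631-68331660, plus strand: tgccggtcgaacCACGTGgggccctttccg
MBNL1, chr3:152298791-152298820, plus strand: tccttttttattCACGTGtcaggacagcag

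Of these 5 genes HNRNPM, HNRNPA3 and HNRNPD fell, HNRNPH3 was not called and MBNL1 rose. Any part of the E-box in these levels was not tested. The CCAAT box CCAAT was in windows of 51.6% of the 31 genes and 42.6% of tested genes, and the GC box GGGCGG in 67.7% and 75.9%. The cyclic AMP response element TGACGTCA was in 0 of the 31 and in 3.7% of tested genes. Among the 21 genes with windows that fell, 10 had a CCAAT box and 15 a GC box, and among the 6 that rose 4 had each. Genes with several starts had up to 5 windows, and any one with the motif counted. No match says only that these letters are not in these windows.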

How the data were processed

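RNA-seq libraries were made by the authors with a kit that keeps strand. The deposited values are whole-number counts of reads per gene, 1 column per library, and the submitters' processing notes name CASAVA 1.8.2, STAR 2.7.9a, featureCounts, DESeq2 1.24.0 and the build GRCh38.p7 without their roles. The annotation release and the strand setting of the counting are not given in the sources used here, so reads of overlapping genes on opposite strands may not be told apart. Of counts from 1 to 20, 68.9% to 70.5% were even in each library, so tests were repeated with counts halved.

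Counts were fitted with edgeR 4.0.16 (R 4.3.3; TMM scaling, filterByExpr, quasi-likelihood test, group as the only term, Benjamini-Hochberg adjustment over 15355 genes) at adjusted p under 0.05. CPM values use the TMM-scaled totals. Alternatives used DESeq2 1.42.0, limma 3.58.1 and other filters or scalings. In a simulation of this comparison with 200 changed genes among 15126, 84% were recovered with 10 false calls. The smallest change planted was larger than that of every tested regulator except SRSF1. The 84% therefore does not describe how readily smaller changes are recovered. In the data 23.6% of tested genes fell and 25.2% rose, a far larger share than was planted. The 10 false calls therefore do not carry over to the real fit. Ratios within a library were compared by exact permutation tests, two-sided. Symbols of all 38 genes matched GENCODE release 29, as did 98.1% of rows.

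The genes, lists, motifs and tests were chosen with earlier results of these data known. Values per library are given for ESRP1, ESRP2, QKI, RBFOX2, PTBP1, SRSF1 and HNRNPA1 and for each other called gene changed by over 1.25-fold, and for a few genes chosen after their values were seen (SRSF6, SRSF8, SRSF12, HNRNPF, CELF1 and MBNL2). In each further list the 2 largest called rises and falls are named. Replicates were cultures of 1 line, and intervals cover no variation between lines.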

Additional observations from a re-analysis of the deposited data

How the results depend on the processing

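Across 14 alternatives (DESeq2 and limma-voom, other scalings, filters, halved counts, the replicate block and leaving out each library), 23 to 26 of the regulators fell, 5 to 7 rose and 0 passed a 2-fold change. The log2 fold change of SRSF1 stayed between -0.96 and -0.92. The median log2 fold change of the regulators, -0.21, was -0.24 with library totals only (-0.2369) and for genes averaging 50 counts or more (-0.2376). It was -0.1955 with no low-count filter, which adds ESRP1, and -0.1948 with limma-voom; leaving out 1 library gave -0.2206 to -0.1856, and the cause was not tested. The summed hnRNP level differed by -13.97% between groups with library totals only. Of the other hnRNPs and relatives 1 to 3 rose.

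SRSF9, not called in any of these, turned from 0.01 to -0.017 with library totals only, -0.0177 for genes averaging 50 counts or more and -0.0027 with halved counts, and lay between -0.0214 and 0.0476 when a library was left out. ESRP2 lay between -0.5187 and 0.4756 when a library was left out. HNRNPA1 passed the threshold under 7 alternatives, among them halved counts and limma-voom, and HNRNPH3 under 1 (a mean of at least 50 counts, adjusted p = 0.0488).

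Same-numbered libraries did not deviate together (correlations 0.0213, -0.019 and -0.0346). This check found no sign of pairing by number, and it cannot settle how the cultures were grown. With the replicate block the median was -0.1959, and HNRNPA1 was called (adjusted p = 0.0437). Among all genes, a scaling moved the median to -0.0217 at most. Depth limits ESRP1, ESRP2 and SRSF12, and no result covers a second line, a second shRNA or doxycycline alone.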
